A study of Homo sapiens with 12 samples.

Results

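The BCL2 family sets whether a cell commits to apoptosis at the mitochondrion, and its transcripts were examined in HEL cells in which JAK2 had been reduced. The members were BCL2, BCL2L1, MCL1, BCL2A1, BAX, BAK1, BAD, BID, BCL2L11 and PMAIP1. They were taken at all probe sets that the platform annotation gives to 1 of these genes alone, which were 25 of the 22406 probe sets without controls, and 10 of the 11940 genes named. A probe set is a group of short array probes read together as a single value. BCL2 had 4 probe sets, BCL2L1 3, MCL1 5, BAX 3, and BAD, BID, BCL2L11 and PMAIP1 had 2 each, while BCL2A1 and BAK1 had 1 each.

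HEL is a human erythroleukaemia line, labelled as an acute myeloid leukaemia line with the JAK2 V617F mutation, and the series design text calls the mutation homozygous. All 12 arrays come from this single line. The 4 groups, of 3 arrays each, were cells given Jak2-9 or Jak2-10, which are different hairpins against JAK2, and cells given the control named GFP or the luciferase control named Luc. The JAK2 hairpins were carried by lentivirus in a pLKO vector with puromycin selection, and GFP is named in the labels both as a hairpin control and as a vector control. No time after infection is given in the labels. The labels number the arrays of a group without saying that they are separate cultures, and the p-values therefore rest on a spread among arrays that may be technical only. In a population of cells, fewer cells of a type and less RNA per cell cannot be told apart.

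Proteins of this family share BH domains and bind each other at the outer mitochondrial membrane. BCL2, BCL-xL (the long product of BCL2L1), MCL1 and A1 (the product of BCL2A1) hold the effectors BAX and BAK in check. BH3-only proteins such as BIM (BCL2L11), BID, BAD and NOXA (PMAIP1) free or activate the effectors, which then open the membrane and release cytochrome c. BCL2L1 and MCL1 are known in blood cells as survival genes downstream of STAT factors, which JAK2 activates, and BCL-xL keeps maturing erythroid cells alive. Much of the control of BAD, BID and MCL1 acts on the protein, which these arrays do not read.

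The hairpins' target was lower on all 6 knockdown arrays than on all 6 control arrays at both of its probe sets. At the brighter one, 205842_s_at, JAK2 was 10.54 ± 0.11 (SD, n = 6) on the log2 intensity scale in controls and 9.87 ± 0.27 in knockdown arrays, or 63.1% of control (95% interval 53.5% to 74.3%; limma, adjusted p = 0.00260). At 205841_at it was at 60.1% of control (adjusted p = 0.0320), a call that was lost on leaving out any 1 of the 6 control or 3 Jak2-10 arrays (0.0615 to 0.0920) and with GFP or Luc alone as control (0.163 and 0.116). With Jak2-10 alone neither probe set passed the threshold (67.0% and 64.5% of control, adjusted p = 0.0556 and 0.329). Leaving out Jak2-9 replicate 1, the lowest array at both probe sets, changed that: JAK2 then passed with Jak2-10 at both (adjusted p = 0.00201 and 0.000192) at the same percentages. In knockdown versus control it was then at 67.8% and 69.6% of control (adjusted p = 0.000406 and 0.000165), and with Jak2-9 at 68.5% and 75.0% (0.00927 and 0.0185).

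Jak2-9 replicate 1 stood apart from the other arrays. At 592 probe sets it lay more than 2-fold away from its 2 group mates' mean, and the same measure gave 0 to 36 on each other array. It held the highest of the 12 values at 8 of the 25 BCL2 family probe sets, against 30.9% of all probe sets, and the lowest at another 8, against 20.6%. On the other arrays 1 to 5 of the 25 were extreme in this sense, against 9.64% to 22.7% of all probe sets. Counts and values that rest on it are therefore also given without it. The array's 3′ to 5′ difference for the actin control probe sets was 0.42 on the log2 scale, the highest of the 12 (0.13 to 0.38 on the others), and that for GAPDH was 0.09, also the highest (-0.13 to -0.0041 on the others). The human Alu control probe set was 14.50 to 14.68 on control arrays and 13.94 to 14.15 on knockdown arrays. The part of these measures in the results below was not tested.

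HEL is known for an erythroid and megakaryocytic character, and all 11 measured erythroid genes lay above the median probe set in intensity, as did 5 of 7 megakaryocyte genes. All 7 granulocyte and monocyte genes lay in the dimmest 30% of probe sets, as did 3 of 6 lymphoid genes and 4 of 6 epithelial genes. Against this pattern, 2 of 6 lymphoid genes and 1 of 6 epithelial genes lay above the median, and 1 of 7 megakaryocyte genes was in the dimmest 30%. Summed epithelial marker intensity was 230.0 to 275.2 on control arrays, 231.9 to 298.3 with Jak2-10 and 285.4 to 417.7 with Jak2-9, where replicate 1 was the highest. Replicate 1 of Jak2-9 also held the highest megakaryocyte, lymphoid and granulocyte sums of the 12 arrays. KRT18 rose with Jak2-9 (0.70, adjusted p = 0.0282), and without replicate 1 its value was 0.51 (0.124). The globin gene HBZ rose with Jak2-9 (0.62, adjusted p = 0.0407), and without replicate 1 its value was 0.34 (0.0970). These calls were lost in 6 and 12 of 19 alternatives. HBB rose in knockdown versus control at 1 of 3 probe sets, 217232_x_at (0.33, adjusted p = 0.0456), a call lost in 12 of 20 alternatives, in which it ran from 0.0560 to 0.209. Erythroid marker intensity summed to 82777 to 92670 on control arrays, 86532 to 93569 with Jak2-10 and 92842 to 95661 with Jak2-9. The part of these marker levels in the results was not tested.

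Setting the 6 knockdown arrays against the 6 control arrays asks whether survival or death genes of this family change when mutant JAK2 is reduced. At none of the 25 probe sets did the level change past the threshold (limma, adjusted p under 0.05 over all 22406 probe sets), against a background of 3.14% of all probe sets in this comparison. The lowest adjusted p among them was 0.229. At an unadjusted p under 0.05 there were 4 of 25, all higher, against 16% of all probe sets. The differences ran from -0.17 to 0.31 on the log2 scale, with 16 above and 9 below 0 and a median of 0.08, and the median over all probe sets was 0.03. Without Jak2-9 replicate 1 they ran from -0.11 to 0.22, with 19 above and 6 below 0 and a median of 0.07. None of the 25 passed there either, against 3.56% of all probe sets (lowest adjusted p 0.261; 4 of 25 at an unadjusted p under 0.05, against 14.6% of all). The 95% interval, taken for each probe set on its own, lay within a 2-fold change in either direction at all 25, and within 1.5-fold at 24, BAK1 being the exception. Without Jak2-9 replicate 1 the BAK1 interval ran from -0.07 to 0.26, and every interval lay within 1.5-fold. At no family probe set did the 6 knockdown arrays clear the 6 control arrays, which happened at 3.16% of all probe sets (1.03% upward and 2.13% downward).

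**Figure D1:**
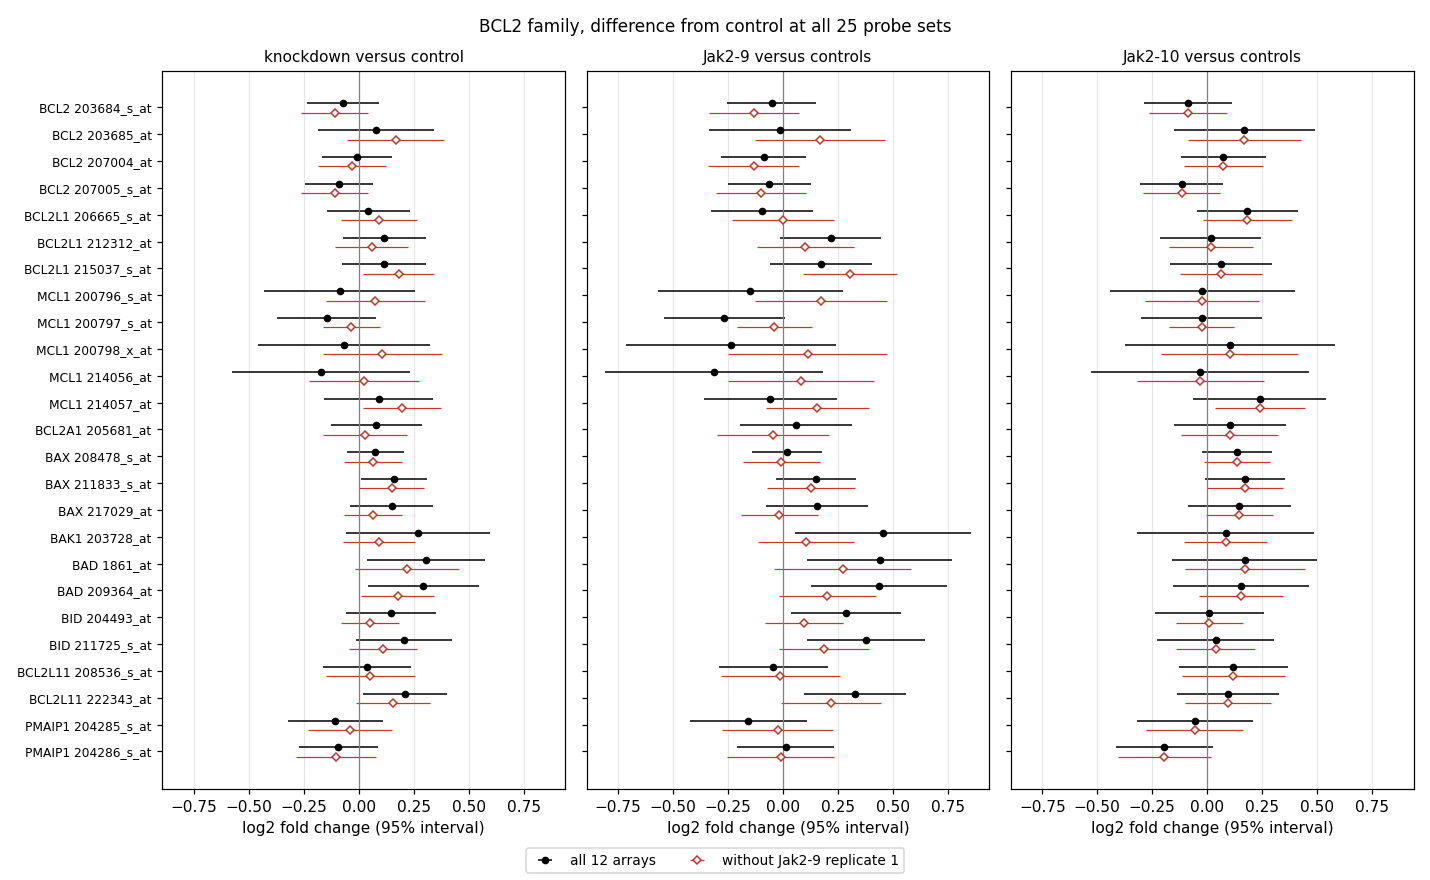
Log2 fold change (horizontal axis) at each of the 25 BCL2 family probe sets (rows), with 95% intervals, for both hairpins together, Jak2-9 and Jak2-10 against both controls. Filled circles use all 12 arrays and open diamonds leave out Jak2-9 replicate 1; no point passed the threshold over all probe sets, and the MCL1, BAK1, BAD and BID points with Jak2-9 lie nearer 0 without that array at the brightest probe set of each gene.

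The anti-apoptotic members were MCL1, BCL2L1, BCL2 and BCL2A1. Their 13 probe sets split into 6 above and 7 below 0 in knockdown versus control, with a median of -0.01, and none passed. Jak2-9 replicate 1 decided that split, which without it was 9 above and 4 below 0 with a median of 0.06.

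MCL1 encodes a short-lived guardian that binds BAK and BIM. At its brightest probe set, 200797_s_at, the log2 intensity was 10.60, 10.53 and 10.44 on the GFP arrays, 10.50, 10.54 and 10.50 on the Luc arrays, 9.80, 10.50 and 10.46 on the Jak2-9 arrays and 10.51, 10.52 and 10.44 on the Jak2-10 arrays. A single array, Jak2-9 replicate 1, lay well below the rest, and the other 11 spanned 10.44 to 10.60. The difference between knockdown and control was -0.15 ± 0.10 (SE; limma, adjusted p = 0.521), and -0.03 ± 0.06 without Jak2-9 replicate 1. The interval without that array ran from -0.16 to 0.10.

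The other 4 MCL1 probe sets showed the same low array. On Jak2-9 replicate 1 they read 4.98, 6.94, 5.18 and 5.74, the lowest of the 12 arrays at each, or 0.511, 0.484, 0.440 and 0.641 times the mean of the other 2 Jak2-9 arrays. Deviations as large as those at 214056_at, 200798_x_at and 200796_s_at occurred at 1.37%, 2.28% and 2.95% of all probe sets on that array, and as large as those at 200797_s_at and 214057_at at 9.21% and 10.6%. With that array the Jak2-9 values lay below the controls at all 5 MCL1 probe sets, from -0.31 to -0.06. Without it 4 of the 5 turned, to between 0.08 and 0.17, and the brightest was at -0.04, none of them past the threshold with or without the array. With Jak2-10 the 5 values ran from -0.03 to 0.24.

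BCL2L1 encodes BCL-xL and, by alternative splicing, the shorter death-promoting BCL-xS. Its brightest probe set, 212312_at, read 8.73, 8.81 and 8.67 on the GFP arrays and 8.53, 8.81 and 8.79 on the Luc arrays. It read 9.17, 8.92 and 8.73 with Jak2-9 and 8.73, 8.89 and 8.61 with Jak2-10. Jak2-9 replicate 1 was the highest array, and the other 11 overlapped across groups. The difference between knockdown and control was 0.12 ± 0.09 (SE; adjusted p = 0.548), or 108% of control with a 95% interval of 95.1% to 123%. Without Jak2-9 replicate 1 it was 0.06 ± 0.08. A fall to the extent seen for JAK2 itself lies outside the interval with all arrays.

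The annotation ties the probe set 206665_s_at to the short BCL2L1 transcript alone and the other 2 to the long and the short transcript. Whether 206665_s_at reads the short transcript alone was not tested, so its values are not a reading of BCL-xS by itself. At 206665_s_at the GFP arrays averaged 8.21 ± 0.07 and the Luc arrays 8.19 ± 0.23, while Jak2-9 averaged 8.10 ± 0.18 and Jak2-10 8.38 ± 0.08 (SD over 3 arrays, n = 3). Jak2-10 exceeded Jak2-9 there by 0.28 ± 0.12 (SE; limma, adjusted p = 0.572, unadjusted p = 0.0420), and by 0.18 ± 0.12 without Jak2-9 replicate 1, the lowest array there (adjusted p = 0.969). Jak2-10 spanned 8.30 to 8.43 and Jak2-9 7.91 to 8.26, while Luc replicate 3 at 8.46 was above both. At 215037_s_at the difference was 0.12 ± 0.09 with all arrays and 0.18 ± 0.08 without Jak2-9 replicate 1 (adjusted p = 0.261).

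BCL2, the founding member, was read by 4 probe sets. The brightest, 203685_at, read 6.39, 6.36 and 5.97 in GFP, 5.84, 6.34 and 6.26 in Luc, 5.82, 6.49 and 6.24 with Jak2-9 and 6.31, 6.46 and 6.31 with Jak2-10. Every group but Jak2-10 held a low array, and the groups overlapped. The difference between knockdown and control was 0.08 ± 0.12 (SE; adjusted p = 0.792), and 0.17 ± 0.10 without Jak2-9 replicate 1. The other 3 BCL2 probe sets were dim, between 4.43 and 5.0 on all arrays, where the highest of 9 plant control probe sets read 4.42 to 4.69. Their differences were -0.09 to -0.01.

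BCL2A1, an NF-kB target of myeloid cells, was equally dim. Its only probe set read 4.96, 4.89 and 4.56 in GFP, 4.50, 4.72 and 4.57 in Luc, 4.97, 4.75 and 4.56 with Jak2-9 and 4.97, 4.80 and 4.64 with Jak2-10. The groups overlapped throughout, and the difference was 0.08 ± 0.10 (SE; adjusted p = 0.715), or 0.03 ± 0.09 without Jak2-9 replicate 1. Of the 9 members matched by symbol in the RefSeq promoter table (GRCh38.p14), all but MCL1, BCL2A1 alone held the STAT-type motif TTCNNNGAA between 250 bases before and 50 after an annotated start. The motif, which reads the same on both strands, occurred in 7.66% of all 34943 such windows. It is shown because STAT factors are the outputs of JAK2, with the motif in capitals, at chr15:79971346-79971374 on the minus strand and 168 bases before the start:
BCL2A1: aggaagtggcTTCTCTGAAacattttcct

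**Figure D2:**
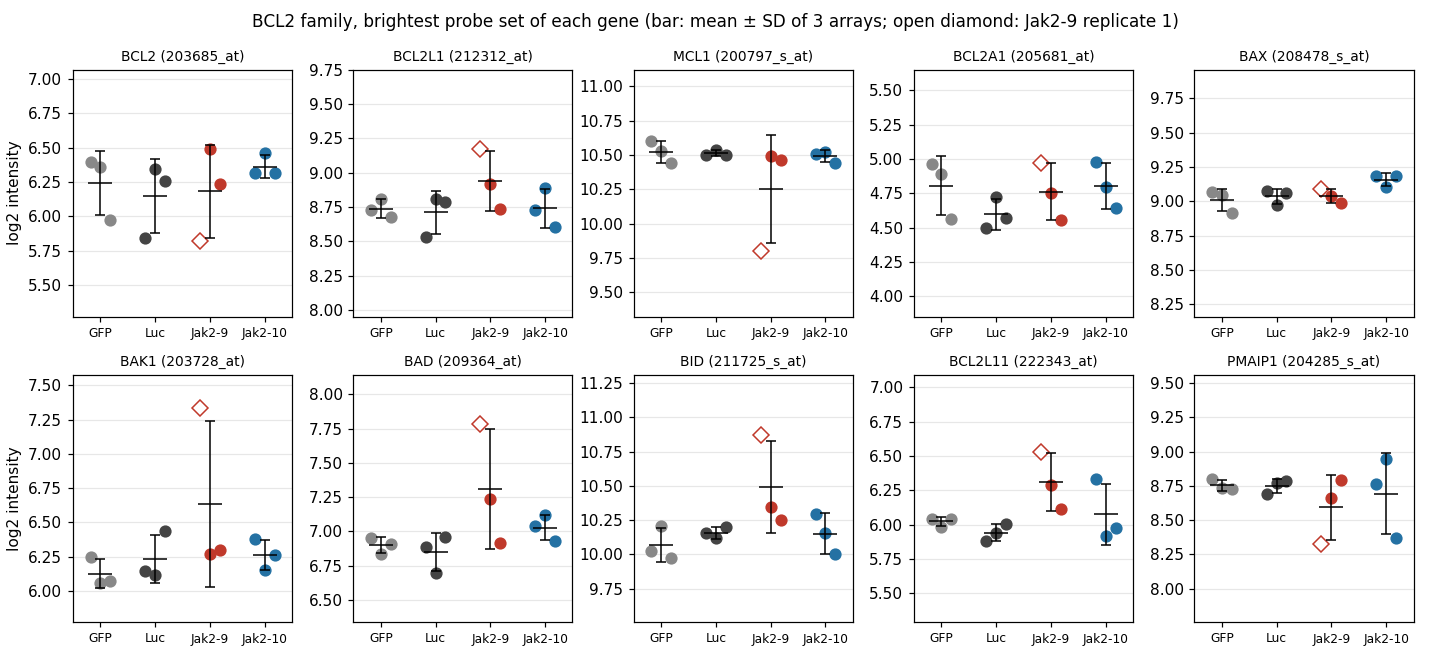
Log2 intensity (vertical axis, each panel spanning the same range of log2 units) at the brightest probe set of each of the 10 genes, by group. Points are single arrays, bars are the mean ± SD of 3 arrays, and the open diamond is Jak2-9 replicate 1, which is lowest for MCL1 at 9.80 and highest for BAK1 at 7.33, BAD at 7.78 and BID at 10.87.

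The effectors BAX and BAK1 form the pore. All 4 of their probe sets lay above 0 in knockdown versus control, from 0.08 to 0.27 with a median of 0.16, and none passed the threshold. Without Jak2-9 replicate 1 they ran from 0.06 to 0.15 with a median of 0.08. The Jak2-9 values of the 4, all above 0 with a median of 0.15, then split into 2 above and 2 below 0 with a median of 0.05.

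BAX moves from the cytosol into the mitochondrial membrane when activated. At its brightest probe set, 208478_s_at, it read 9.07, 9.04 and 8.92 in GFP, 9.08, 8.98 and 9.06 in Luc, 9.09, 9.04 and 8.99 with Jak2-9 and 9.19, 9.10 and 9.18 with Jak2-10. The 3 Jak2-10 arrays lay above all 6 control arrays, by a small margin, and the Jak2-9 arrays did not. The Jak2-10 difference was 0.13 ± 0.07 (SE; adjusted p = 0.830). At 211833_s_at BAX was 8.87 ± 0.10 in controls and 9.03 ± 0.08 in knockdown arrays (SD, n = 6 each), a difference of 0.16 ± 0.07 (SE; adjusted p = 0.270) that was 0.15 ± 0.07 without Jak2-9 replicate 1. The third BAX probe set was among the dimmest 30%. Jak2-10 arrays cleared all control arrays upward at 2 of the 25 family probe sets, both of BAX, and downward at 0 of 25, against 5.88% of all probe sets (2.58% upward and 3.31% downward).

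BAK1 encodes BAK, which sits in the mitochondrial membrane and is bound there by MCL1 and BCL-xL. It read 6.25, 6.06 and 6.07 in GFP, 6.15, 6.12 and 6.44 in Luc, 7.33, 6.27 and 6.30 with Jak2-9 and 6.38, 6.16 and 6.26 with Jak2-10. Jak2-9 replicate 1 was 2.06 times the mean of the other 2 Jak2-9 arrays, and those 2 lay within the control range. The Jak2-9 difference of 0.45 ± 0.19 (SE; adjusted p = 0.175) became 0.11 ± 0.10 without that array, and the difference of both hairpins went from 0.27 ± 0.15 to 0.09 ± 0.08.

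BH3-only members were read by 8 probe sets, of which 6 lay above and 2 below 0 in knockdown versus control, with a median of 0.18 (0.08 without Jak2-9 replicate 1). None passed the threshold over all probe sets in any comparison, apart from the alternatives named for BAD, BID and BCL2L11.

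BAD binds BCL2 and BCL-xL when growth factor signalling stops phosphorylating it. At 209364_at it read 6.95, 6.84 and 6.91 in GFP, 6.89, 6.70 and 6.96 in Luc, 7.78, 7.24 and 6.92 with Jak2-9 and 7.04, 7.12 and 6.93 with Jak2-10. Both groups of knockdown arrays reached above the controls, but each held an array within the control range. The difference between knockdown and control was 0.29 ± 0.12 (SE; adjusted p = 0.229), the lowest adjusted p of the family, and 0.18 ± 0.08 without Jak2-9 replicate 1 (0.295). It passed in a single alternative, without Jak2-9 replicate 3 (0.39, adjusted p = 0.0400), as did the Jak2-9 values of this probe set, of BID at 211725_s_at and of BCL2L11 at 222343_at (0.0141, 0.0366 and 0.0393). In that alternative 1 of 25 family probe sets passed in knockdown versus control and 3 of 25 with Jak2-9. Of all 22406 probe sets, 941 and 2020 did. Replicates 1 and 2 were then the only Jak2-9 arrays. The second BAD probe set, 1861_at, read 6.54, 6.73 and 6.51 in GFP, 6.70, 6.66 and 6.25 in Luc, 7.34, 6.91 and 6.75 with Jak2-9 and 6.87, 6.95 and 6.38 with Jak2-10. There the 3 Jak2-9 arrays lay above all 6 control arrays, and the difference with Jak2-9 was 0.44 ± 0.15 (SE; adjusted p = 0.117), or 0.27 ± 0.15 without replicate 1. With the replicate number as a block it passed (adjusted p = 0.0432), and 1104 of all 22406 probe sets then passed with Jak2-9.

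BID is cut by caspase-8 and carries the death receptor signal to the mitochondrion. At 211725_s_at it read 10.02, 10.21 and 9.97 in GFP, 10.16, 10.12 and 10.20 in Luc, 10.87, 10.35 and 10.25 with Jak2-9 and 10.30, 10.15 and 10.0 with Jak2-10. The Jak2-9 arrays lay above all control arrays, replicate 1 by the widest margin, and the Jak2-10 arrays overlapped the controls. The difference with Jak2-9 was 0.38 ± 0.12 (SE; adjusted p = 0.10) and 0.19 ± 0.10 without replicate 1 (0.462), against 0.04 ± 0.12 with Jak2-10. The difference between the hairpins was -0.34 ± 0.14 (Jak2-10 minus Jak2-9, adjusted p = 0.572), and -0.15 ± 0.11 without replicate 1 of Jak2-9 (0.969). At 204493_at, BID ran from 9.70 to 9.92 on control arrays and from 9.74 to 10.44 on knockdown arrays. The 10.44 was Jak2-9 replicate 1, and the other knockdown arrays, at 9.74 to 9.91, lay within the control range. The difference with Jak2-9 there was 0.29 ± 0.12 (SE; limma, adjusted p = 0.169), and 0.10 ± 0.08 without replicate 1 (0.709).

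BCL2L11 encodes BIM, a potent BH3-only protein whose gene FOXO factors switch on when cytokine signalling ends. At its brighter probe set, 222343_at, it read 6.04, 5.98 and 6.04 in GFP, 5.88, 5.94 and 6.0 in Luc, 6.53, 6.29 and 6.11 with Jak2-9 and 6.33, 5.92 and 5.98 with Jak2-10. The Jak2-9 arrays lay above all control arrays, and of the Jak2-10 arrays replicate 1 did. The difference between knockdown and control was 0.21 ± 0.09 (SE; adjusted p = 0.258) and 0.16 ± 0.08 without Jak2-9 replicate 1. The dimmer probe set, 208536_s_at, gave 0.04 ± 0.09. Of the 15 promoter windows of the 9 members in the table, that of BCL2L11 alone held the forkhead motif TGTTTAC on either strand, as did 3.42% of all windows. It is shown for the known link of FOXO factors to BIM, at chr2:111120681-111120707 on the plus strand, 223 bases before the start, with the motif in capitals as read from the opposite strand:
BCL2L11: agttactccgGTAAACAcgccagggac

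PMAIP1 encodes NOXA, which binds MCL1 and A1. At 204285_s_at it read 8.80, 8.73 and 8.73 in GFP, 8.69, 8.77 and 8.78 in Luc, 8.33, 8.66 and 8.79 with Jak2-9 and 8.76, 8.95 and 8.37 with Jak2-10. The control arrays lay close together, and each hairpin had a low array. The difference between knockdown and control was -0.11 ± 0.10 (SE; adjusted p = 0.638), and -0.04 ± 0.09 without Jak2-9 replicate 1. At 204286_s_at it was -0.09 ± 0.08, with Jak2-10 at -0.20 ± 0.10 (adjusted p = 0.796), where replicate 3 read 7.61 against 7.97 and 8.11.

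Each hairpin was also set against both controls alone. With Jak2-9 no family probe set passed (lowest adjusted p 0.0999, BAD at 209364_at), against 4.27% of all probe sets. At an unadjusted p under 0.05 there were 6 of 25, all higher: BAD at both probe sets, BID at both, BAK1 and BCL2L11 at 222343_at. Across all probe sets 22.2% met that value. Without Jak2-9 replicate 1 none of the 25 passed, against 2.19% of all probe sets. The number at an unadjusted p under 0.05 was then 1 of 25, against 12.6% of all probe sets, and that 1 was BCL2L1 at 215037_s_at (0.30 ± 0.10, SE; adjusted p = 0.176). The anti-apoptotic probe sets had a median of -0.06 with all arrays and 0.08 without that array, and BH3-only probe sets 0.31 and 0.14. Jak2-9 arrays cleared all control arrays at 3 of 25 probe sets, all upward, against 12.2% of all probe sets (7.48% upward and 4.71% downward). Without replicate 1 the same 3 and BCL2L1 at 215037_s_at did, against 16.6% of all probe sets (10.2% upward and 6.4% downward).

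**Figure D3:**
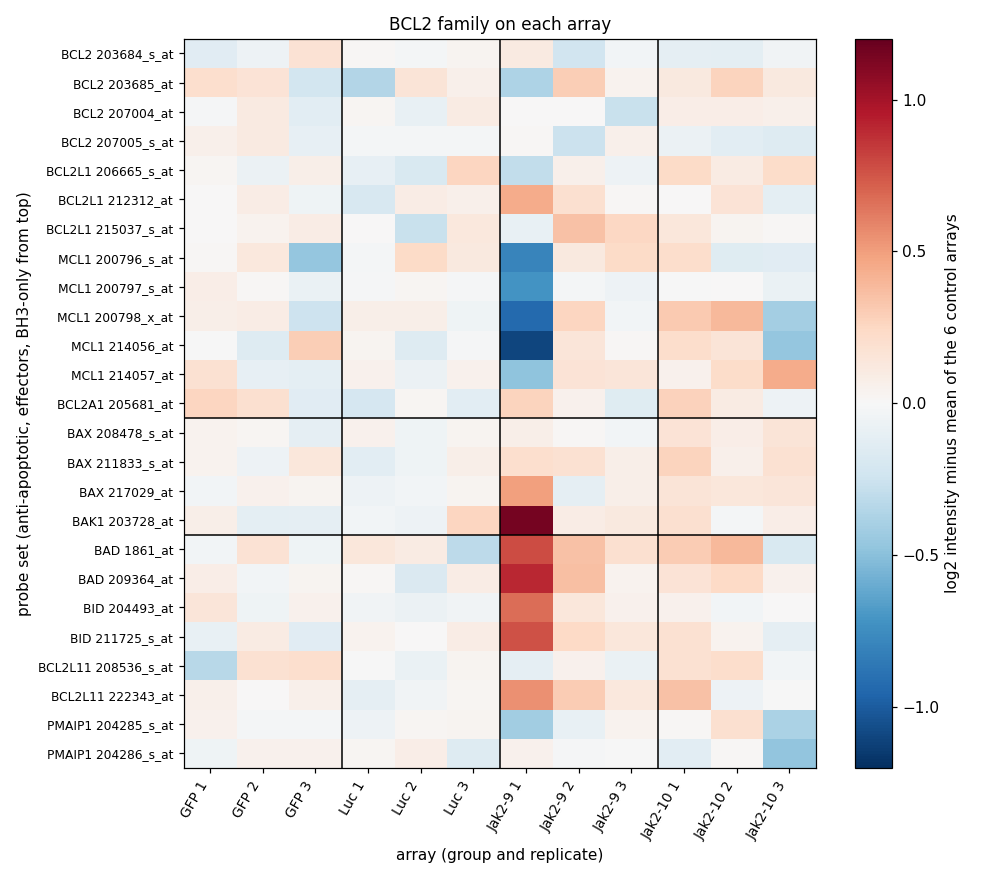
Log2 intensity of each array minus the mean of the 6 control arrays (colour scale), for the 25 BCL2 family probe sets (rows) and 12 arrays (columns). The column of Jak2-9 replicate 1 holds the strongest colours, with the 5 MCL1 rows below and the BAK1, BAD and BID rows above the control mean.

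Jak2-10 alone gave no family probe set past the threshold (lowest adjusted p 0.747, BAX at 211833_s_at), against 1.37% of all probe sets. None of the 25 had an unadjusted p under 0.05, against 7.10% of all probe sets. Without Jak2-9 replicate 1, which also enters the estimate of the spread, 1 of 25 did, MCL1 at 214057_at, against 11.2% of all. The values ran from -0.20 for PMAIP1 to 0.24 for MCL1 at 214057_at. All 25 intervals with Jak2-10 lay within a 1.5-fold change, against 19 of 25 with Jak2-9, where all 25 lay within 2-fold. Without Jak2-9 replicate 1 every Jak2-9 interval also lay within 1.5-fold, the farthest bound being 0.584 (log2) for BAD at 1861_at. Both hairpin comparisons use the same control arrays. The hairpins themselves differed at no family probe set (limma, lowest adjusted p 0.572; 2 of 25 at an unadjusted p under 0.05, against 8.56% of all), and at none of the 22406. Luc and GFP likewise differed at none of the 25, with the largest differences 0.22 for MCL1 at 200796_s_at and -0.21 for BCL2A1, and 0 of 25 had an unadjusted p under 0.05, against 2.5% of all.

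Other genes of the apoptosis pathway were read at 128 probe sets of 55 genes. In knockdown versus control 1 fell and 0 rose, with a median of 0.00. With Jak2-9 3 rose and 3 fell, and with Jak2-10 1 fell. Those counts are 0.781%, 4.69% and 0.781% of the 128, against 3.14%, 4.27% and 1.37% of all probe sets, so the share with Jak2-9 is near the background. The probe set that fell in all 3 was 213596_at of CASP4, an inflammatory caspase. It read 4.90, 4.87 and 4.92 in GFP, 4.91, 5.0 and 4.99 in Luc, 4.41, 4.40 and 4.54 with Jak2-9 and 4.33, 4.59 and 4.60 with Jak2-10, with no overlap between knockdown and control. The difference was -0.46 ± 0.07 (SE; adjusted p = 0.00103), and its call with Jak2-10 (0.0173) was lost without Jak2-10 replicate 1 (0.135) or with median centring (0.0529). This probe set was dim, and the far brighter CASP4 probe set 209310_s_at was at 0.11 ± 0.09 (adjusted p = 0.569).

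Among the 12 measured genes listed as other BCL2 family or related genes, BCLAF1 and BECN1 included, none of 20 probe sets passed in knockdown versus control. With Jak2-9 BCL2L13 rose (0.39, adjusted p = 0.0330) and BCLAF1, a nuclear protein that binds BCL2 family members, fell at 214499_s_at (-0.56, adjusted p = 0.0466). At 201083_s_at, 201084_s_at and 201101_s_at BCLAF1 did not pass with Jak2-9 (-0.39, -0.29 and -0.57; limma, adjusted p = 0.0831, 0.209 and 0.192). Of the 10 genes of the mitochondrial pore and of released proteins, ENDOG, a mitochondrial nuclease, rose with Jak2-9 (0.75, adjusted p = 0.0123). Of the 4 measured inhibitors of apoptosis BIRC5, or survivin, rose at 202094_at (0.35, adjusted p = 0.0342) but did not pass at its other 2 probe sets (0.23 and 0.04), and BIRC2, a ubiquitin ligase that restrains death receptor signalling, fell (-0.35, adjusted p = 0.0416). Without Jak2-9 replicate 1 none of these 5 passed: BCL2L13 was at 0.32 (adjusted p = 0.131), BCLAF1 at -0.30 (0.130), ENDOG at 0.62 (0.0504), BIRC5 at 0.28 (0.140) and BIRC2 at -0.24 (0.183). Over 19 alternatives, that one included, BCL2L13, BCLAF1, ENDOG, BIRC5 and BIRC2 lost the call in 9, 12, 1, 10 and 12. The 10 measured genes of death receptors and adaptors had none past the threshold, with CFLAR, a decoy of caspase-8, lowest in p (211316_x_at, -0.53 ± 0.14, SE; adjusted p = 0.0506). Of its other probe sets, 209939_x_at, 210563_x_at, 209508_x_at and 208485_x_at were at -0.05, -0.06, -0.10 and -0.22 (limma, adjusted p = 0.728, 0.697, 0.574 and 0.552). These are not all CFLAR probe sets: 210564_x_at was also lower with knockdown, with a mean of 6.77 on control arrays and 6.64 over all arrays. The 9 measured regulators of MCL1 turnover and BH3-only genes likewise had none past the threshold, with FOXO3 lowest in p (217399_s_at, 0.19 ± 0.07, adjusted p = 0.186). The far brighter FOXO3 probe sets 204131_s_at and 204132_s_at lay the other way, at -0.37 ± 0.25 and -0.23 ± 0.23 (adjusted p = 0.496 and 0.657).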

How the data were processed

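Total RNA (20 ng per sample, amplified linearly, per the labels' protocols) was read on 1-colour Affymetrix arrays. The authors deposited 1 table of linear intensity values, and the submitters' processing notes name RMA without a version. RMA corrects background, normalizes quantiles and summarises probes, which compresses differences of dim probe sets. Median intensity was 44.9 to 49.1 per array, and precision is limited by how many arrays there are. Detection calls were not used here.

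Of 22930 probe sets, 524 controls were left out. Of the rest, 19415 had 1 gene symbol, 125 several and 2866 none. The deposited intensities were taken to log2, and 4 group means were fitted to all 12 arrays with limma 3.58.1 (lmFit, eBayes; R 4.3.3), with Benjamini-Hochberg adjustment over 22406 probe sets at a threshold of 0.05. Knockdown is the mean of both JAK2 hairpins and control the mean of GFP and Luc. On simulated data for knockdown versus control (22406 probe sets, 5 runs) the fit called 22%, 68.4% and 98% of changes of 0.3, 0.5 and 1 on the log2 scale. All members were named at every probe set; of the other pathway lists, up to 4 genes past the threshold, or that of lowest p. The members and lists were chosen with earlier results of these data known. Alternatives were a replicate block, scaling, a filter, gene summaries, array weights, an intensity trend, single controls, only the arrays compared, and leaving out each array.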

Additional observations from a re-analysis of the deposited data

How the results depend on the processing

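The count of 0 family probe sets past the threshold held in all 5 comparisons under the alternatives run, with these exceptions. With the replicate block 1 of 25 passed with Jak2-9 (BAD 1861_at), against 1104 of all 22406 probe sets. On leaving out single arrays the count ran from 0 to 1 in knockdown versus control and from 0 to 3 with Jak2-9, the higher value each time without Jak2-9 replicate 3. Those counts of 1 and 3 of 25 stood against 941 and 2020 of all 22406 probe sets.

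Counts over all probe sets moved more. In knockdown versus control 704 passed (141 up, 563 down; 261 and 526 with median centring), 218 genes with the brightest probe set per gene, 283 with the mean per gene, 1209 with array weights, 277 with GFP alone as control, and 489 to 941 without single arrays. With Jak2-9 956 passed (368 up, 588 down), 1436 with median centring (856 and 580), 367 and 507 with the gene summaries, 593 with only the arrays compared, and 490 to 2020 without single arrays: 490, 1447 and 2020 without Jak2-9 replicate 1, 2 or 3, 579 and 600 without GFP replicate 1 or 2, and 564 without Luc replicate 2. With Jak2-10 308 passed, 82 and 92 with the gene summaries, 591 with array weights, and 128 to 491 without single arrays: 174, 174 and 128 without Jak2-10 replicate 1, 2 or 3, and 491 without Jak2-9 replicate 1. For Luc minus GFP the 0 (limma; 561 at an unadjusted p under 0.05) became 1 with the replicate block, 9 with array weights, 3 without GFP replicate 1 and 2 without Luc replicate 3, and was 0 without any other single array. For Jak2-10 minus Jak2-9 it stayed 0 (limma; 1919 at an unadjusted p under 0.05).

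Some small values of knockdown versus control, none past the threshold, changed sign. BCL2 207004_at became 0.024 with median centring, 0.0037 with GFP alone and -0.036 to 0.038 without single arrays. MCL1 200796_s_at became 0.042 with array weights, 0.024 with GFP alone and -0.18 to 0.075 without single arrays. MCL1 200798_x_at became 0.17 with array weights and -0.19 to 0.11 without single arrays, and MCL1 214056_at 0.093 and -0.29 to 0.025. BCL2A1 became -0.024 with GFP alone, and BCL2L11 208536_s_at -0.050 to 0.084 without single arrays. The cause was not tested.

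Deviations from the group mean on same-numbered arrays of different groups correlated at r from -0.14 to 0.19 (18 pairs, median 0.05, 4 over 0.1). Differently numbered arrays gave r from -0.18 to 0.17 (36 pairs, median -0.03, 5 over 0.1). The ranges overlap, so the check cannot decide whether the numbers pair the arrays. The replicate block gave 708 calls in knockdown versus control, 1104 with Jak2-9 and 292 with Jak2-10.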
